A study of Homo sapiens with 6 samples.

Results

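The genes described here are the 6 subunits of the MCM helicase ring (MCM2, MCM3, MCM4, MCM5, MCM6 and MCM7), the loading factors CDC6 and CDT1, and CDC45 and MCM10, which act when the loaded helicase is switched on. These 10 genes were chosen by name, as the rows of the deposited gene tables whose Ensembl identifiers carry these symbols, out of 56632 genes in all. Each of the 10 symbols matched a row, and each of the 10 genes passed the filter on low counts that left 16786 genes for testing.

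The study sequenced poly(A) RNA of HCT116, a long-established line of human colorectal cancer cells, in 6 libraries. The siMatrin3 group (3 libraries) received small interfering RNAs against Matrin3, which binds RNA in the nucleus and is the product of MATR3, and the siCTRL group (3 libraries) received an unrelated negative control siRNA. Cells of both groups were transfected, transfected again after 72 hours, and the labels give a further 48 hours after that. The methods differ from the labels here, since they put a reseeding of the cells at that point and the purification of RNA at 3 days after the second transfection, and whether reseeding bears on these genes was not tested. The libraries of a group are separate biological samples according to the methods, and all 6 come from the same cell line.

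A replication origin is marked by the origin recognition complex (ORC). In G1 phase, ORC and CDC6, together with CDT1, load the MCM2 to MCM7 ring onto DNA as an inactive double hexamer, a step known as licensing, and geminin (GMNN) binds CDT1 later in the cycle to prevent a further round. In S phase the kinases CDC7-DBF4 and CDK let CDC45 and the GINS complex join the ring, with MCM10 helping the helicase to start unwinding, and many of these genes are textbook targets of the E2F transcription factors.

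The start regions of the 10 genes are shown first, because E2F targets are known for short motifs near the transcription start. RefSeq windows of 300 bases, 250 before and 50 after an annotated start, were available for 8 of the 10 genes (12 windows, build GRCh38.p14), and MCM4 and MCM5 had no window. The E2F core was searched in 4 forms, spelled TTGGCGC in the first form, TTCCCGC in the second form, TTGCCGC in the third form and TTCGCGC in the last form, and the CCAAT box as CCAAT, each on both strands, and forms of the E2F core could overlap one another. The 30-base stretches below are written 5′ to 3′ on the strand of the gene. Capitals mark E2F core matches in the first 6 and CCAAT matches in the last 2, whose windows held no E2F core match.

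MCM2: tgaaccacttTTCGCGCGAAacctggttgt

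MCM3: gttcggaagttTTCGCGCcggggtggagtc

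MCM6: ttggtcaggtTTGGCGCGAAatctccagct

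MCM7: ggggcgacgtTTCGCGCCAAtttcggttgg

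CDC6: gccattcggatTTGGCGCgagcgcggctgg

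CDT1: cgcccGCGGGAAatttgGCGGGAAccgcgc

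MCM10: gggcgtCCAATgacgtaaaCCAATccgatt

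CDC45: gccgcctCCAATgtggcCCAATcagaaaga

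The MCM2 stretch (chr3:127598404-127598433, plus strand) spans the annotated start, from 7 bases upstream to base 23 of the first exon, counted with the start as base 1. Those of MCM3 (chr6:52284727-52284756, minus strand), MCM7 (chr7:100101386-100101415, minus strand), CDC6 (chr17:40287876-40287905, plus strand) and CDC45 (chr22:19479801-19479830, plus strand) also span a start. The stretches of MCM6 (chr2:135876513-135876542, minus strand), CDT1 (chr16:88803749-88803778, plus strand) and MCM10 (chr10:13161434-13161463, plus strand) lie wholly upstream of the start. In MCM2, MCM6 and MCM7 the capitals hold a pair of overlapping matches on opposite strands, and in CDT1 a pair of separate ones. An E2F core match was present for 6 of the 8 genes (75%), against 24.3% of the tested genes with a window and 15.3% of all genes with a window. Counted by window, a match was in 58.3% of the 12 windows, against 18.5% of the windows of tested genes and 13% of all 35116 windows. The 12 windows are not separate, since MCM7 and CDC45 had 3 each and windows of CDC45 shared bases. A CCAAT match was also present for 6 of the 8 genes, MCM2 and CDT1 being without, against 42.7% of the tested genes with a window. The motif TTTGAA, known from genes of later cell cycle stages, was in none of the 12 windows, in 10.3% of the windows of tested genes and in 15.2% of all windows. These are matches of letters and no binding was measured.

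The libraries held 40808173 to 54185650 expected counts, the estimated number of reads per gene, and the common coefficient of variation between replicates, as edgeR estimates it apart from counting error, was 5.98%. MATR3 (ENSG00000015479) had 186.39, 180.25 and 176.46 TPM (transcript abundance scaled to a fixed total per library) in siCTRL replicates 1 to 3 and 95.17, 112.05 and 110.67 in siMatrin3 replicates 1 to 3, and was lower in 3 of 3 siMatrin3 libraries. On counts it fell by 47.5% (log2 fold change -0.93, edgeR adjusted p = 7.67e-05), and with an offset for transcript length its log2 fold change was -0.76. Its exons overlap those of another annotated MATR3 gene on the same strand. Epithelial markers of the line were present, with EPCAM at 234.84 to 248.58 TPM, whereas CEACAM5 and VIL1 did not exceed 0.01 and 0.47 TPM. Of the 7 epithelial markers tested 0 rose and 1 fell, KRT18, from 973.89 to 1030.29 TPM in siCTRL to 856.4 to 924.74 TPM in siMatrin3 (edgeR adjusted p = 0.033). Of the markers of other cell types, PTPRC, COL1A2, DCN and INS were listed at 0 in all 6 libraries, and CD68, COL1A1 and DES were detected. The summed TPM of the markers of other cell types was 32.2 to 37.7 in siCTRL and 32.0 to 38.6 in siMatrin3. siCTRL replicate 1 stood apart for the genes described here: it had the lowest log2 CPM (counts scaled for library size) of all 6 libraries for 10 of the 10 genes, and the longest fragments by the tables' length columns (a median of 196.4 bases between length and effective length, against 178.5 to 191.1 in the other 5 libraries). Its part in the results was not tested beyond leaving it out, and values without it are given below.

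The first question was whether the licensing genes differed in total mRNA between siMatrin3 and siCTRL. Counts of 9 of the 10 genes rose in siMatrin3 and 0 fell, with CDC6 the gene that did not pass. The test was edgeR's quasi-likelihood test, two-sided, with Benjamini-Hochberg adjustment over all 16786 genes and a threshold of 0.05. The edgeR background was 11% of tested genes called in either direction and 5.05% called higher, with 847 higher and 1002 lower. DESeq2 also called 9 of the 10 higher and 0 lower, against 875 higher and 939 lower over all genes. At an unadjusted p under 0.05 in edgeR the counts were 10 higher and 0 lower. All genes were not counted at that threshold, so these counts have no background. The increases were small, with a median log2 fold change of 0.23 over the 10 genes against -0.001 over all genes tested, and a range of 10.1% for CDC6 to 26.1% for CDC45. In poly(A) RNA of a whole culture, more cells in the phases that use these genes and more RNA per cell cannot be told apart. In assays apart from these libraries, the paper reports reduced proliferation of HCT116 after Matrin3 knockdown. By staining and flow cytometry it reports no change in the cell cycle. How those assays bear on these genes was not tested.

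**Figure D1:**
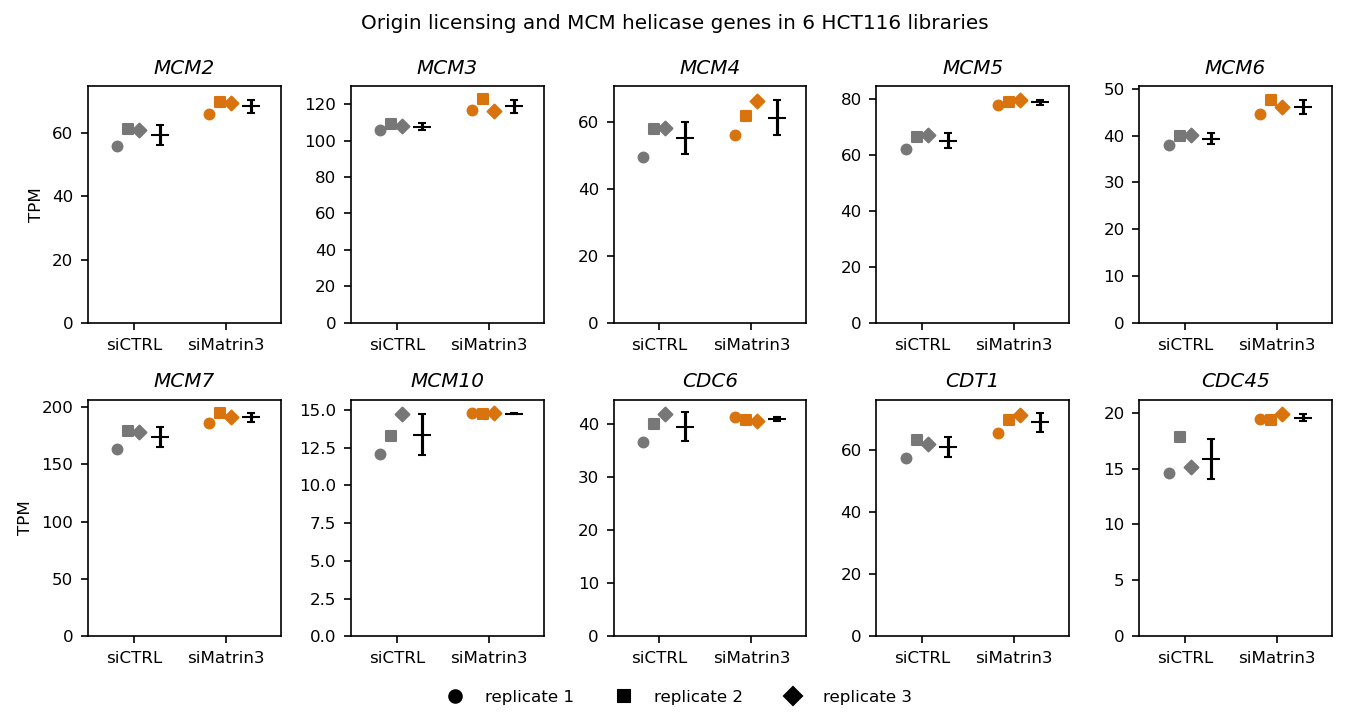
TPM of each of the 10 genes in each of the 6 libraries, with siCTRL in grey and siMatrin3 in orange, the marker shape giving the replicate number, and black bars the mean and SD of 3 libraries. The siMatrin3 libraries lie above every siCTRL library for 7 genes, while the groups overlap for MCM4, MCM10 and CDC6.

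Among the ring subunits MCM5 (ENSG00000100297), which forms the gate of the ring with MCM2, had the highest log2 fold change. Its level was 61.96, 66.37 and 66.86 TPM in siCTRL replicates 1, 2 and 3, and 77.63, 78.89 and 79.47 TPM in siMatrin3 replicates 1, 2 and 3. The groups were well apart, and the siMatrin3 libraries differed little from one another. On counts its log2 fold change was 0.30 (SE 0.0419, edgeR adjusted p = 0.00228), a rise of 23.0% that was matched or exceeded by 5.72% of the genes tested. MCM6 (ENSG00000076003), which sits between MCM2 and MCM4 in the ring, had 38, 39.98 and 40.17 TPM in siCTRL and 44.72, 47.72 and 46.15 TPM in siMatrin3. Again the lowest siMatrin3 library was above the highest siCTRL library. Its log2 fold change was 0.26 (SE 0.0416, edgeR adjusted p = 0.00472).

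MCM2 (ENSG00000073111), the subunit whose tail also binds histones, had 55.69, 61.25 and 60.79 TPM in siCTRL and 65.94, 69.69 and 69.46 TPM in siMatrin3. Replicate 1 was the lowest library within each group, and the groups did not overlap. MCM2 rose by 0.24 on the log2 scale (SE 0.0418, edgeR adjusted p = 0.00656). MCM3 (ENSG00000112118), which sits between MCM5 and MCM7, had 105.8, 109.33 and 107.81 TPM in siCTRL and 116.86, 122.87 and 116.45 TPM in siMatrin3. The siCTRL libraries were close to one another and all below the siMatrin3 libraries, of which replicate 2 was highest. The log2 fold change of MCM3 was 0.19 (SE 0.0390, edgeR adjusted p = 0.0128).

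MCM7 (ENSG00000166508), the most abundant of the 10 genes, had 163.48, 178.97 and 178.09 TPM in siCTRL and 186.29, 194.71 and 191.2 TPM in siMatrin3. The groups did not overlap, although siCTRL replicate 1 was further from the other siCTRL libraries than these were from siMatrin3 replicate 1. It rose by 0.18 on the log2 scale (SE 0.0429, edgeR adjusted p = 0.0242), the smallest change in the ring. With the exons of all its annotated transcripts pooled, MCM7 overlaps the microRNA gene MIR93 on the same strand, so some reads may be shared. MCM4 (ENSG00000104738), a catalytic subunit, had 49.58, 57.77 and 57.99 TPM in siCTRL and 55.92, 61.58 and 66.29 TPM in siMatrin3. siMatrin3 replicate 1 lay below siCTRL replicates 2 and 3 in TPM, so the groups overlapped. On counts MCM4 rose by 0.25 on the log2 scale (SE 0.0629, edgeR adjusted p = 0.0307), with the widest SE in the ring.

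Of the loaders, CDT1 rose and CDC6 did not pass the test. CDT1 (ENSG00000167513), which brings the ring to ORC and CDC6, had 57.17, 63.15 and 61.85 TPM in siCTRL and 65.35, 69.53 and 71.21 TPM in siMatrin3. All siMatrin3 libraries were above all siCTRL libraries, and replicate 1 was again the lowest of each group. Its log2 fold change was 0.23 (SE 0.0541, edgeR adjusted p = 0.0241). CDC6 (ENSG00000094804), the ATPase that binds ORC to start loading, had 36.64, 40.01 and 41.99 TPM in siCTRL and 41.37, 40.84 and 40.56 TPM in siMatrin3. The siMatrin3 values lay inside the siCTRL range, and the siCTRL spread came from replicate 1 at the low end and replicate 3 at the high end. On counts the log2 fold change of CDC6 was 0.14 (95% interval 0.02 to 0.25, edgeR adjusted p = 0.114). The interval included the estimates of MCM2, MCM3, MCM4, MCM7, MCM10 and CDT1.

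Both genes of helicase activation rose. CDC45 (ENSG00000093009), a part of the active CDC45-MCM-GINS helicase, had 14.56, 17.85 and 15.16 TPM in siCTRL and 19.44, 19.34 and 19.87 TPM in siMatrin3. The siMatrin3 libraries were close together and above all siCTRL libraries, of which replicate 2 was highest. It rose by 0.34 on the log2 scale (SE 0.0640, edgeR adjusted p = 0.00985), the largest estimate of the 10 genes, with a 95% interval of 0.19 to 0.48 that included the estimates of MCM2, MCM4, MCM5, MCM6, MCM10 and CDT1. MCM10 (ENSG00000065328) had 12.05, 13.27 and 14.73 TPM in siCTRL and 14.79, 14.71 and 14.77 TPM in siMatrin3. The siMatrin3 libraries were nearly equal, and siCTRL replicate 3 reached their level in TPM. On counts MCM10 rose by 0.22 on the log2 scale (SE 0.0412, edgeR adjusted p = 0.00896).

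In TPM the groups were apart, with all siMatrin3 libraries higher, for 7 of the 10 genes, against 9.99% of all genes tested. In log2 CPM they were apart for 10 of 10, against 15.5% of all genes tested. TPM divides the counts by a transcript length that was estimated anew in each library, whereas CPM does not. The summed TPM of the 10 genes was 594.9, 648 and 645.4 in siCTRL and 688.3, 719.9 and 715.4 in siMatrin3. siCTRL replicate 1 was the lowest and the siMatrin3 libraries were the highest of the 6.

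**Figure D2:**
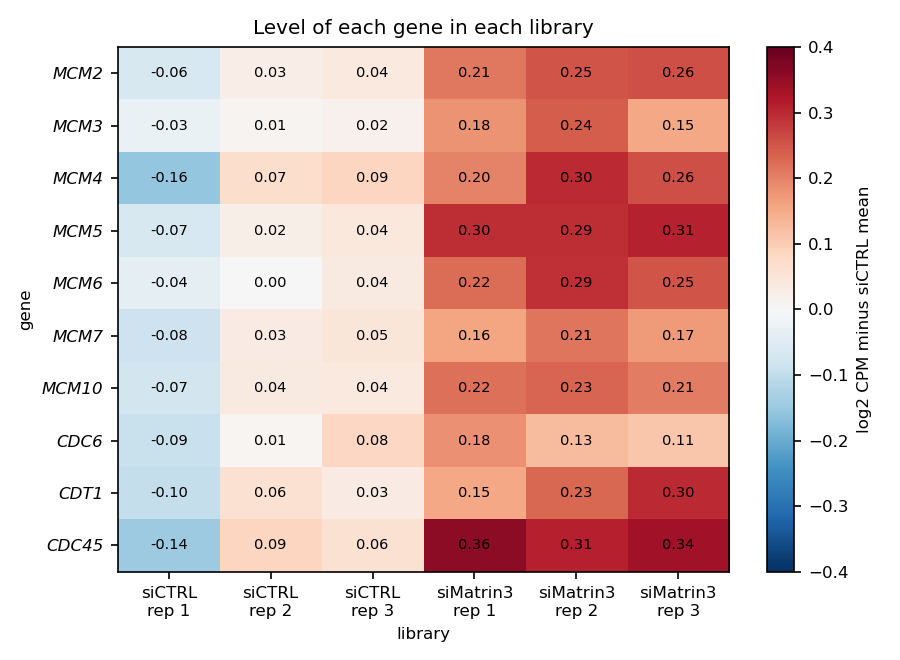
Log2 CPM of each gene (rows) in each library (columns), minus the mean of the 3 siCTRL libraries, with the colour scale running from blue (lower) to red (higher). The siMatrin3 columns are positive for all 10 genes, and the column of siCTRL replicate 1 is negative for all 10.

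Averaged over the 10 genes, log2 CPM minus the siCTRL mean was -0.08, 0.04 and 0.05 in siCTRL and 0.22, 0.25 and 0.24 in siMatrin3. When siCTRL replicate 1 was left out, the 10 genes had a median of 0.18 and a range of 0.10 to 0.27 in log2 fold change, and 6 of them were called by edgeR. MCM4 (0.18, edgeR adjusted p = 0.0518), MCM7 (0.14, 0.0689) and CDT1 (0.18, 0.0627) were then no longer called. Calls also dropped to 5 without siMatrin3 replicate 2 (MCM2, MCM5, MCM6, MCM10 and CDC45), to 6 without siMatrin3 replicate 3, and to 8 without siCTRL replicate 3, where CDT1 was lost.

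The direction was the same under each of the alternatives run, with 10 of 10 log2 fold changes positive, but the number of calls was not. edgeR with an offset for transcript length called 3 genes (MCM2, MCM5 and MCM6), with a median log2 fold change of 0.18. limma on log2(TPM + 1) called 2 higher (MCM5 and MCM6) and 0 lower, with 7 higher at an unadjusted p under 0.05, and a median of 0.16. Over all genes this limma fit called 151 higher and 286 lower. MCM5 and MCM6 kept their call in all 16 alternatives, with log2 fold changes of 0.26 to 0.32 and 0.23 to 0.27. CDC6 was not called in any of the 16, with log2 fold changes of 0.05 to 0.18. The other genes lost their call in 2 (MCM2), 3 (MCM10 and CDC45), 4 (MCM3), 6 (MCM4) or 7 (MCM7 and CDT1) of the 16.

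**Figure D3:**
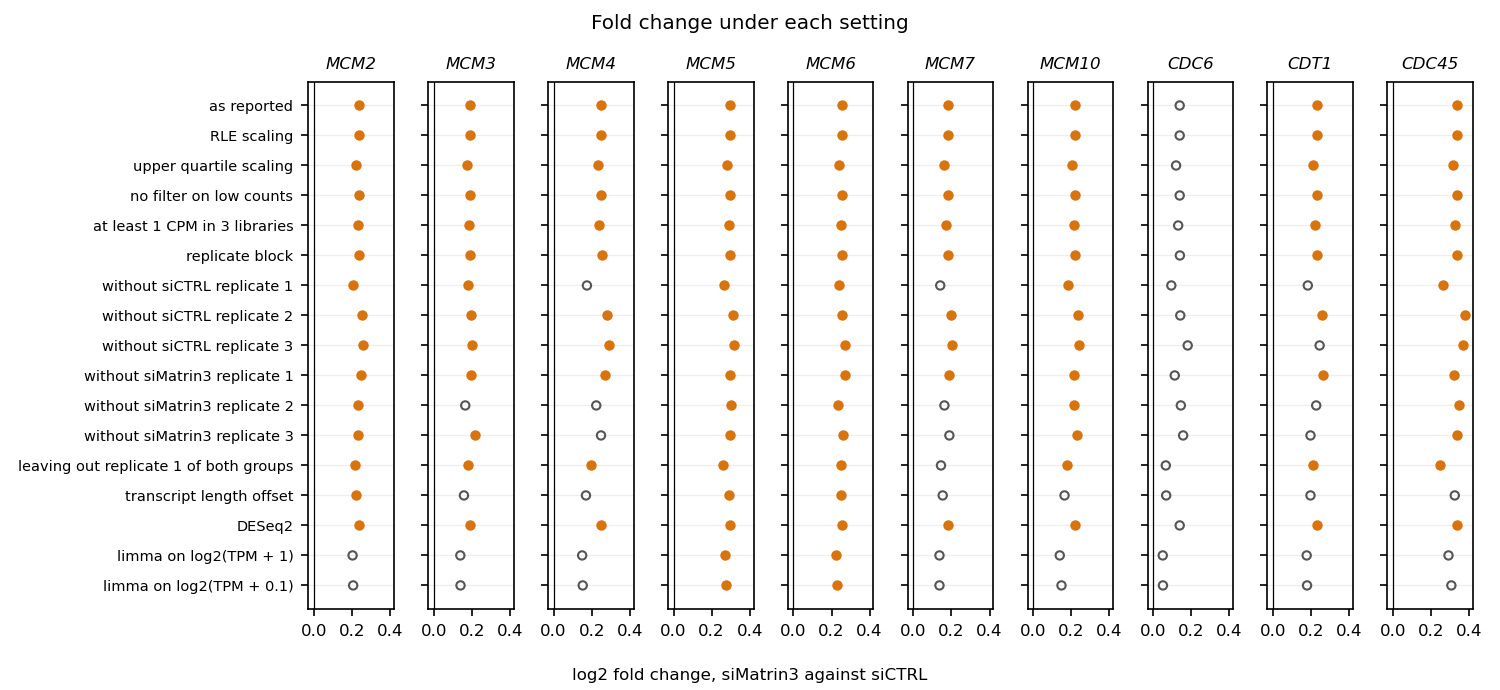
Log2 fold change (x axis) of each gene (panels) as reported and under 16 alternatives (rows), filled where the adjusted p was under 0.05 and open where it was not. All points lie right of 0, MCM5 and MCM6 are filled throughout, and CDC6 is open throughout.

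The weighted transcript length, the mean length of a gene's transcripts weighted by their estimated abundance, was compared because it is a readout of the transcript mix and enters TPM. No difference passed the test for any of the 10 genes (limma, 0 called, 2 at an unadjusted p under 0.05, which were CDC6 and MCM3), and only 0.00834% of the 11984 genes tested, a single gene, were called. At an unadjusted p under 0.05, 371 of the genes tested were longer in siMatrin3 and 359 shorter. CDC6 had 2683.54, 2668.67 and 2646.32 bases in siCTRL and 2812.37, 2773.69 and 2765.75 bases in siMatrin3. The siMatrin3 lengths of CDC6 were all longer, by 0.06 on the log2 scale (limma adjusted p = 0.469), and its groups overlapped in TPM but not in log2 CPM. The groups were also apart, and longer in siMatrin3, for MCM3 and MCM7. The share of tested genes with groups apart in that direction was 5.34%. Means were longer in siMatrin3 for 10 of the 10 genes, against 50.6% of the genes tested. For MCM5 and CDC45, however, the means differed by less than the SD of each group. For MCM2, MCM4, MCM6 and MCM10 they differed by less than the larger SD. MCM4 varied most within siMatrin3, with 3622.64, 3575.15 and 3247.33 bases against 3266.48 to 3330.24 in siCTRL. The MCM10 length in siCTRL replicate 3, 3563.89 bases, was below the other 5 libraries, which had 3930.82 to 4031.85, and this was the library whose MCM10 TPM reached the siMatrin3 level.

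The balance of the ring was described as each subunit's share of the summed TPM of MCM2 to MCM7, a scale that corrects for length. The 6 subunits are present in equal number in the assembled ring, but their mRNA levels were not equal. In siCTRL, MCM7 made up 34.7% ± 0.214 (SD, n = 3) and MCM6 7.88% ± 0.116. MCM5 had shares of 13.06%, 12.92% and 13.07% in siCTRL and 14.18%, 13.71% and 13.97% in siMatrin3. MCM7 had shares of 34.45%, 34.84% and 34.8% in siCTRL and 34.03%, 33.84% and 33.6% in siMatrin3. The MCM5 share was thus higher and the MCM7 share lower in every siMatrin3 library, though MCM7 itself rose. The groups were apart as well for MCM2 and MCM6, both higher, and overlapped for MCM3 and MCM4. As shares of expected counts, which are not corrected for length, MCM7 made up 29.4% in siCTRL and 28.6% in siMatrin3, and MCM5 12.0% and 12.6%. The difference in share by counts was 0.646 percentage points for MCM5, against 0.938 by TPM, and 0.169 for MCM2, against 0.275, while for MCM4 it was 0.249 by counts and -0.154 by TPM. These shares add to a fixed total, and they were not tested.

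By TPM in siCTRL the order from high to low was MCM7, MCM3, MCM5, CDT1, MCM2, MCM4, CDC6, MCM6, CDC45 and MCM10. The ranges of neighbours overlapped from MCM5 through MCM4, for CDC6 and MCM6, and for CDC45 and MCM10. In siMatrin3 the range of MCM6, 44.72 to 47.72 TPM, lay above that of CDC6, 40.56 to 41.37 TPM. The ratio of CDT1 to its inhibitor GMNN in TPM was 2.595, 2.665 and 2.664 in siCTRL and 2.781, 2.611 and 3.056 in siMatrin3. The groups overlapped, with siMatrin3 replicate 2 inside the siCTRL range and replicate 3 the highest.

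The partners of the 10 genes were described from lists of the same pathway. For comparison with each count below, 5.05% of all tested genes were called higher. Of 7 genes of the origin recognition complex and its partner LRWD1, 1 rose and 0 fell, with a median log2 fold change of 0.11. ORC3 had 9.37, 10.41 and 10.42 TPM in siCTRL and 11.51, 11.79 and 11.08 TPM in siMatrin3, with groups apart, and rose by 0.21 on the log2 scale (SE 0.0536, edgeR adjusted p = 0.0301). ORC1, the subunit whose level cycles, was at 0.16 and ORC6 at 0.19 on the log2 scale (edgeR adjusted p = 0.136 for both). ORC2, ORC4 and ORC5, other core subunits of the complex, had log2 fold changes of 0.09, 0.002 and 0.11 and did not pass. When a library was left out, 2 of the 7 genes were called without siCTRL replicate 2 and 0 without any other library.

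Of 10 genes that limit licensing or handle MCM proteins, 2 rose and 0 fell, with a median of 0.09. DTL, the substrate receptor that directs CDT1 to degradation in S phase, had 13.97, 15.18 and 14.73 TPM in siCTRL and 16.33, 17.88 and 15.85 TPM in siMatrin3, and rose by 0.25 on the log2 scale (SE 0.0425, edgeR adjusted p = 0.00543). MCMBP, a binding partner of the MCM subunits, rose by 0.18 (SE 0.0384, edgeR adjusted p = 0.0180). GMNN, the inhibitor of CDT1, had a log2 fold change of 0.12 and did not pass (edgeR adjusted p = 0.228). The count of 2 dropped to 1 without siCTRL replicate 3, siMatrin3 replicate 2 or siMatrin3 replicate 3, and was 3 without siMatrin3 replicate 1.

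Of 16 genes listed as firing factors, 7 rose and 0 fell, with a median of 0.15. The list holds genes that help turn the licensed ring into a moving helicase and genes that act at the moving fork. WDHD1, which links the helicase to DNA polymerase alpha, had 12.66, 11.54 and 12.69 TPM in siCTRL and 13.99, 14.35 and 15.43 TPM in siMatrin3. All siMatrin3 libraries were higher, and its log2 fold change was 0.26 (SE 0.0390, edgeR adjusted p = 0.00335). TICRR, which brings TOPBP1 to the origin, rose by 0.25 and TOPBP1 by 0.23 on the log2 scale (edgeR adjusted p = 0.00735 and 0.0117). TIMELESS, of the fork protection complex, rose by 0.20 (edgeR adjusted p = 0.0218). Of the kinase pair, DBF4, the activating subunit, rose by 0.19 (edgeR adjusted p = 0.0256), and the catalytic subunit CDC7 was at 0.15 and did not pass (edgeR adjusted p = 0.119). Among the GINS subunits, GINS2 rose by 0.23 (edgeR adjusted p = 0.0393). GINS1, GINS3 and GINS4 were at 0.04, 0.15 and 0.11 and did not pass, with 95% intervals that each included the GINS2 estimate apart from that of GINS1, which ended at 0.21. The count of 7 dropped to 3 without siCTRL replicate 1, siMatrin3 replicate 2 or siMatrin3 replicate 3, and to 5 without any other library.

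**Figure D4:**
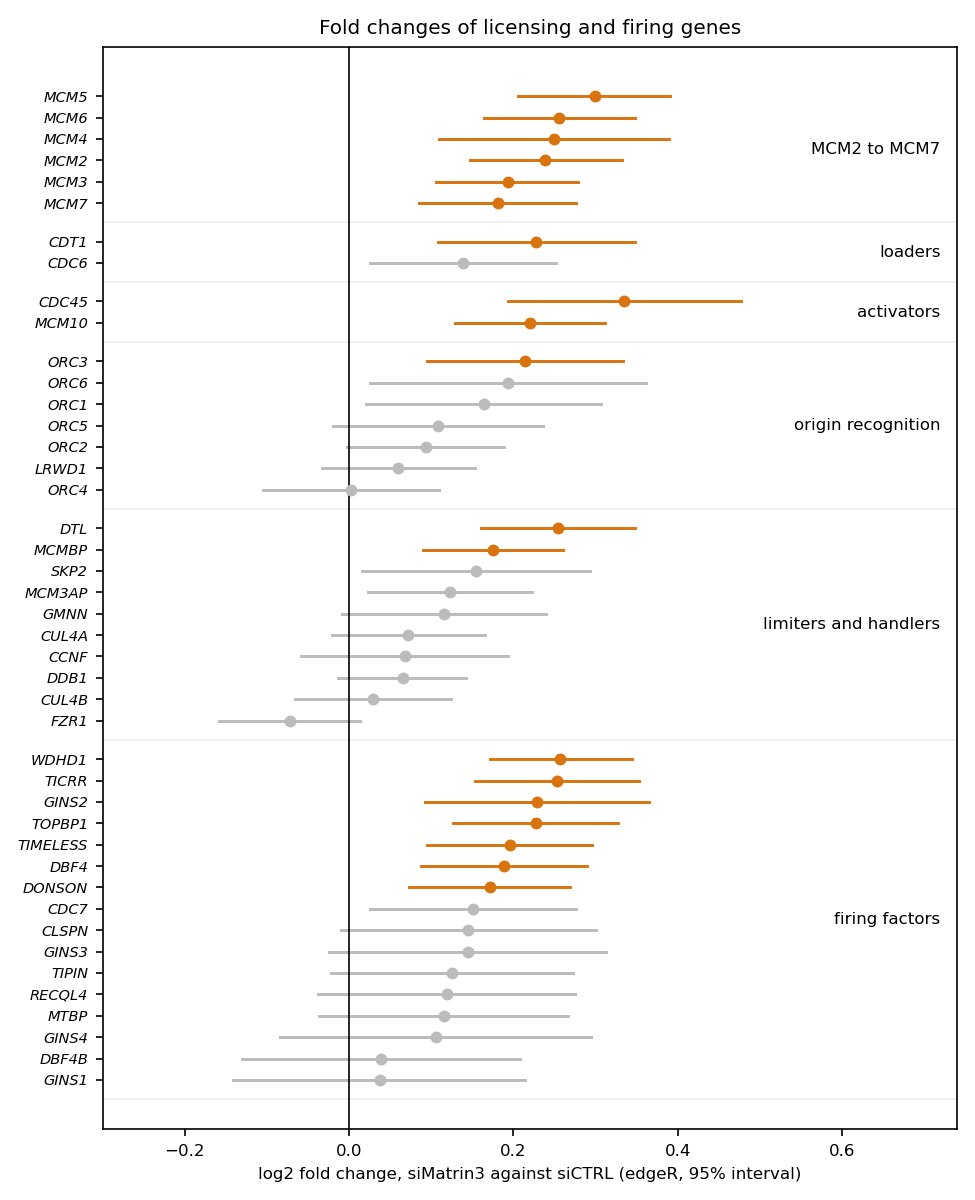
Log2 fold change of siMatrin3 against siCTRL (points, x axis) with its 95% interval (bars) for the 10 genes and their partners, grouped by role, orange where the edgeR adjusted p was under 0.05 and grey where it was not. Of the genes drawn, 9 of 10 ring, loader and activator genes are orange, against 1 of 7, 2 of 10 and 7 of 16 in the partner groups. Of all genes tested, 5.05% were called higher.

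None of the 3 MCM paralogs that are not ring subunits passed (edgeR, 0 called, 1 at an unadjusted p under 0.05). MCM8 was at 0.21 (edgeR adjusted p = 0.0875) and MCM9, its partner in recombination, at 0.06. MCMDC2 had 0.21, 0.2 and 0.25 TPM in siCTRL and 0.17, 0.17 and 0.12 TPM in siMatrin3. Its groups were apart with siMatrin3 lower, as were those of 2544 of the 16786 genes tested. At -0.40 on the log2 scale MCMDC2 was not called (edgeR adjusted p = 0.373). Without siCTRL replicate 2, 1 of the 3 was called higher. Of 23 genes of the replication fork, 4 rose and 0 fell, with a median of 0.15. These were POLE4 and POLE of DNA polymerase epsilon (0.45 and 0.21), RPA1 of the single-strand binding complex (0.16) and RFC5 of the clamp loader (0.17). The count of 4 dropped to 2 without siMatrin3 replicate 1, and to 1 without any other library apart from siCTRL replicate 2. Of 15 genes of G2 and mitosis, 4 rose and 0 fell, with the same median of 0.15 (BUB1, CCNA2, CDC20 and TOP2A, at 0.20, 0.20, 0.21 and 0.15). This count was 9 without siMatrin3 replicate 1, 8 without replicate 1 of both groups and 8 with DESeq2, but 2 and 1 without siCTRL replicates 1 and 2, and 0 without siCTRL replicate 3, siMatrin3 replicate 2 or siMatrin3 replicate 3. Averaged over these 15 genes, log2 CPM was 0.05, 0.20 and 0.19 above the siCTRL mean in siMatrin3 replicates 1, 2 and 3, so that replicate 1 was low, while the 10 licensing genes were at 0.22 to 0.25 in all 3. Whether the lists differ was not tested. In the 6 partner lists together, of 7, 10, 16, 3, 23 and 15 genes, edgeR called 18 higher and 0 lower. Over all tested genes 5.05% were called higher. At an unadjusted p under 0.05 edgeR had 42 higher and 0 lower, a threshold at which all genes were not counted. DESeq2 called 23 and 0, and limma on log2(TPM + 1) 1 and 0. Without siMatrin3 replicate 2 or 3 edgeR called 5 of the partner genes, without siCTRL replicate 3 it called 7, and without siCTRL replicate 1 it called 8.

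The genes whose 6-library pattern was nearest to the mean of the 10 were sought outside the 10, the partner lists and the cell type markers. Candidates were 7813 genes with a mean of at least 10 TPM, compared by the root mean square difference in log2 CPM over 6 libraries. Genes of the partner lists were not ranked, so nearer patterns may lie among them. Those described here were DPH2, an enzyme of diphthamide synthesis (0.0216), NOP16, a nucleolar protein (0.0218), NT5DC2 (0.0259) and ZDHHC16, a palmitoyltransferase (0.0263). They were chosen for this pattern, so sharing it is no separate result. Each was low in siCTRL replicate 1, by 0.06 to 0.12 below the siCTRL mean, and higher in all siMatrin3 libraries, with log2 fold changes of 0.21 to 0.26. Of the 10 genes themselves, MCM2 (0.0136) and MCM10 (0.0152) were nearest to their own mean, and CDC6 (0.0754) and CDC45 (0.0816) farthest. Each of the 10 is part of that mean, so these distances cannot be set against those of genes outside it.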

How the data were processed

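Poly(A) RNA-seq of HCT116 cells was analysed from the tables deposited for 3 siCTRL and 3 siMatrin3 libraries, grouped by their labels. Libraries came from a stranded mRNA kit. The submitters' processing notes name cutadapt, STAR 2.5.1, RSEM and the hg19 build. The methods give another STAR version, and a later harvest, after reseeding, than the labels. The authors deposited expected counts, which RSEM divides among transcripts and genes that share reads, TPM, which the authors scaled by transcript length to the same total per library, and 2 length columns, in bases. FPKM was not used.

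After rounding, expected counts passed through filterByExpr and TMM scaling, and edgeR 4.0.16 (R 4.3.3) tested siMatrin3 against siCTRL with no covariates. For weighted length, limma 3.58.1 was run on log2 values of the 11984 genes that reached 50 expected counts in every library. All tests were two-sided with Benjamini-Hochberg adjustment. P-values judge the difference between the groups against the spread between these libraries. The log2 CPM used a prior count of 2. The steps were run on simulated data whose spiked fold changes were larger than those of the genes described here. Those runs therefore do not show how often changes this small are found. Symbols matched 88.3% of genes. Same-strand exon overlap was checked in GENCODE on another build, so coordinates are given only for RefSeq windows. A planned comparison of protein sequences was not run.

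The 10 genes, the lists and the tests were chosen with earlier results of these data known. Named genes were MATR3, the 10 genes, ORC1 to ORC6, GINS1 to GINS4, GMNN, CDC7 and DBF4, up to 4 further called genes of each list with the smallest p, and the 5 genes nearest in pattern, of which 1 is not reported here. MCM8, MCM9, MCMDC2, LRWD1 and the cell type markers named were chosen after their values were seen. The alternatives comprised 2 scalings (RLE, upper quartile), testing without a filter or with at least 1 CPM in 3 libraries, blocking on replicate number, dropping single libraries or replicate 1 of both groups, a transcript length offset, DESeq2 1.42.0, a threshold of 0.01, limma on log2 TPM with a pseudocount of 1 or 0.1, a minimum of 200 counts for length, and ring shares from expected counts.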

Additional observations from a re-analysis of the deposited data

How the results depend on the processing

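The count of the 10 genes called higher was 9, and 5 to 9 when a library was left out, 3 with the transcript length offset, 2 with limma on either log2(TPM + 1) or log2(TPM + 0.1), and 5 at an adjusted p under 0.01. No gene of the 10 and none of the partner lists was called lower in any of these. All genes called higher numbered 847, and 292 to 687 when a library was left out, 542 without replicate 1 of both groups, 290 with the length offset, 151 and 155 with limma on the larger and smaller pseudocount, and 207 at 0.01. All genes called lower numbered 1002, and 467 to 912, 416 with the length offset, 286 and 274 with limma, and 354 at 0.01. Genes of the 6 partner lists called higher numbered 18, and 5 to 19 when a library was left out, 11 with upper quartile scaling, 30 with no filter, 4 with the length offset, 1 and 1 with limma, and 4 at 0.01. Upper quartile scaling gave 636 higher and 1146 lower over all genes, so 35.7% of calls were higher against 45.8%. With the replicate block 9 of the 10 genes stayed called, with 1338 genes called higher and 35 in the partner lists. Same-number deviations correlated at 0.177, 0.09 and 0.00, so the replicate numbers were not taken as pairs, although 4 of 6 libraries correlated best with their own number. The fall of MATR3 ranged from -0.98 to -0.76 on the log2 scale and kept its call. The difference in the CDT1 to GMNN ratio, 0.175, ranged from 0.0548 to 0.277 when a library was left out, lowest without siMatrin3 replicate 3. Log2 length differences ran from -0.0307 to 0.0562 for CDC45 and from -0.00657 to 0.0757 for MCM10 when a library was left out, and reversed for CDC45 without siCTRL replicate 1 (-0.00783), siCTRL replicate 2 (-0.0307) or siMatrin3 replicate 1 (-0.00414), and for MCM10 without siCTRL replicate 3 (-0.00657). The cause of these shifts was not tested. Of the fold changes of the 10 genes under the alternatives, 128 kept their call status and 32 lost a call, with no change of sign. With 3 libraries a group, several calls depended on single libraries, and TPM keeps no depth.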
